A study of Macaca mulatta with 6 samples.

Results

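The cyclic nucleotide phosphodiesterases of brain were followed in samples labelled as cortical neurons of rhesus monkeys (Macaca mulatta) after long exposure to morphine. Markers of glia were also read in every library, so the name is that of the labels. The set holds 10 genes by name: PDE1A, PDE1C, PDE2A, PDE4A, PDE4B, PDE4C, PDE4D, PDE7A, PDE7B and PDE8B. Of these, 8 were matched by symbol to 1 rhesus gene identifier each among the 23191 genes of the deposited table, and all 8 had a mean of at least 10 normalized counts, the minimum for testing, as did 16595 genes in all. PDE2A and PDE8B were not matched and are not analysed here.

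Polyadenylated RNA was sequenced in 3 libraries from morphine-treated and 3 libraries from saline-treated male monkeys aged 3 to 4 years. Morphine was given under the skin 3 times a day over 90 days, with a dose of 3 mg/kg that was raised through 6, 9 and 12 mg/kg to 15 mg/kg from day 29, and saline was given on the same schedule at 0.5 mL/kg. The study asked how chromatin folding changes with chronic morphine, and these libraries give its gene expression. The protocol names 4 monkeys, 2 per group, and the labels give all libraries of a group a single code, so within each group 2 or more libraries come from the same monkey. Tests over libraries measure the spread between these samples and give p-values that are too small for a statement about animals, and treatment cannot be told apart from differences between animals. Recovered depth lay between 31238653 and 36345095 reads per library.

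Phosphodiesterases end cyclic nucleotide signals by hydrolysing cAMP and cGMP. Opioid receptors couple to inhibitory G proteins that lower adenylyl cyclase activity, and cAMP then acts through protein kinase A, the Epac exchange factors and cyclic nucleotide-gated channels. The PDE1 enzymes are activated by calcium and calmodulin and act on both nucleotides, while the PDE4 and PDE7 enzymes are specific for cAMP. PDE4 enzymes are the targets of rolipram, to which PDE7 enzymes are insensitive.

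Of the 8 genes measured, PDE1A and PDE4D fell with morphine and 0 rose in limma at an adjusted p under 0.05. Over all 16595 genes tested, 15.0% fell and 12.9% rose by the same rule, so that 2 falls among 8 genes cannot be read as particular to the family. At an unadjusted p under 0.05 in limma, 4 of the 8 were lower with morphine (PDE1A, PDE4C, PDE4D and PDE7B) and 0 higher, beside 21.4% and 20.4% of all genes tested. DESeq2 and edgeR also called 0 rises among the 8, beside 18.0% and 16.3% of all genes. The median log2 fold change of the 8 genes was -0.30, against 0.01 over all genes tested. The same 4 genes had all 3 morphine libraries below all 3 saline libraries, as did 24.6% of all genes tested, and 0 of the 8 had them all above, as did 24.1% of all genes. Without morphine replicate 1, 2 or 3 the count of falls was 1 in each case.

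**Figure D1:**
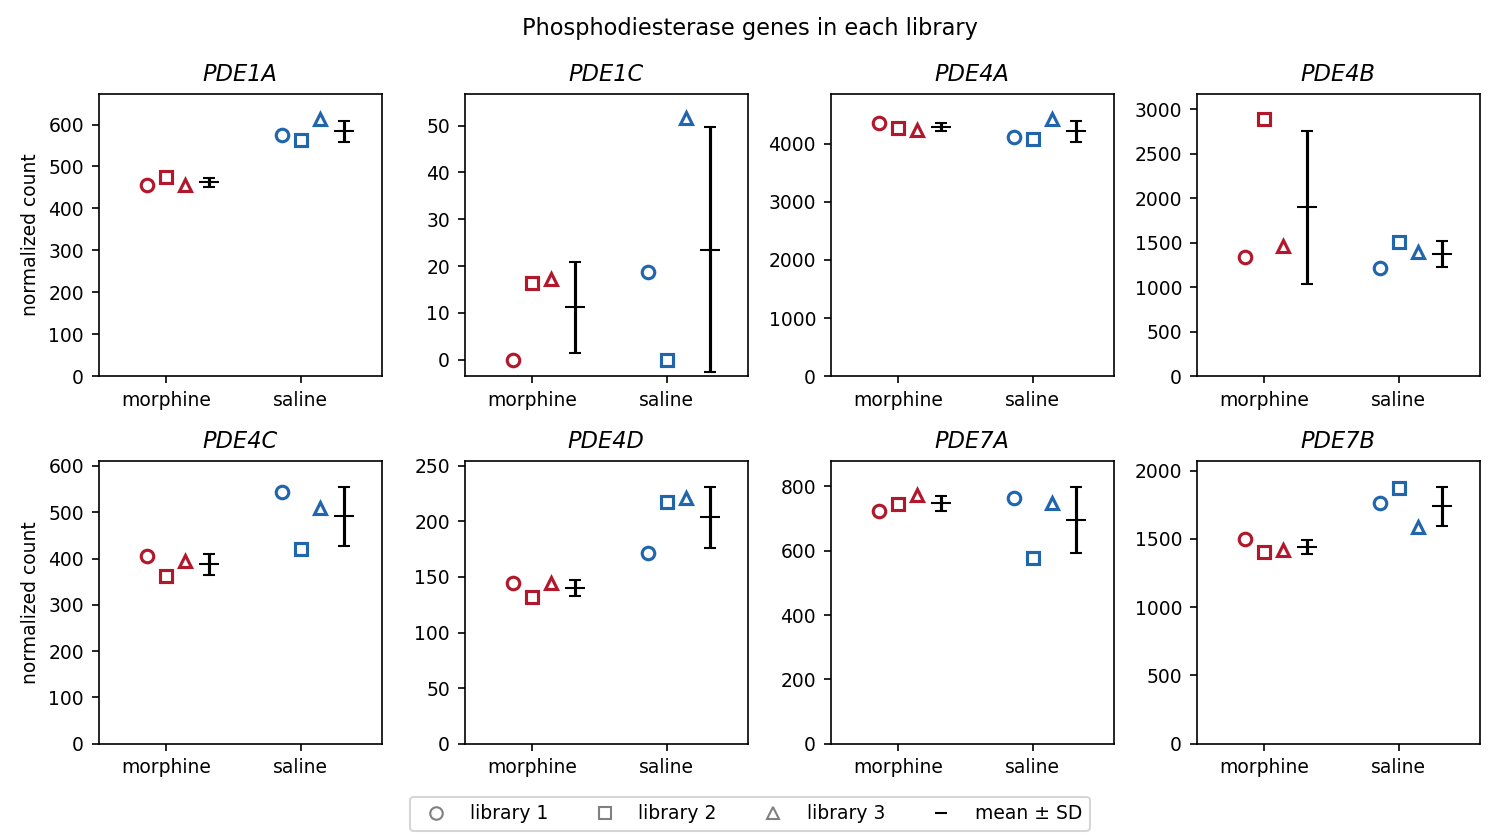
Normalized counts (y axis, linear, a separate scale for each gene) of the 8 measured phosphodiesterase genes in the 3 morphine and 3 saline libraries. Open symbols are single libraries, marked by library number within the group (the labels do not say that numbers pair libraries), and bars are the mean ± SD of 3 libraries. PDE1A, PDE4C, PDE4D and PDE7B lie lower in every morphine library than in any saline library, and morphine library 2 stands apart for PDE4B.

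PDE1A, a calmodulin-activated enzyme that favours cGMP, was lower in all morphine libraries. PDE1A (ENSMMUG00000001163) had 455.9, 474.8 and 456.4 normalized counts in morphine libraries 1, 2 and 3, against 575.3, 563.3 and 612.7 in saline libraries 1, 2 and 3. The groups did not overlap, and the gap between them was wider than the range within either. The means were 462.4 ± 10.8 with morphine and 583.8 ± 25.8 with saline (SD, n = 3 libraries each). PDE1A fell by 0.34 ± 0.0564 (SE) on the log2 scale, with a limma adjusted p of 0.0136. The call held in each of the 6 limma fits with 1 library left out, where the adjusted p ran up to 0.0497, without morphine replicate 1. The authors' deposited table gives PDE1A a log2 fold change of -0.34 and an adjusted p of 0.0339.

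PDE1C, which hydrolyses cAMP and cGMP about equally, had few reads. PDE1C (ENSMMUG00000001625) had 0, 18 and 18 reads in morphine libraries 1, 2 and 3, against 19, 0 and 49 reads in saline libraries 1, 2 and 3. Where no read was counted, up to 3 reads are allowed, which is 3.19 normalized counts in morphine library 1 and 3.01 in saline library 2, counting error only. The groups overlapped fully, and each held 1 library without a read. The log2 fold change was -0.57 with a 95% interval from -5.44 to 4.30, and it was 0.81 without morphine replicate 1 and 0.62 without saline replicate 3, so no direction can be given.

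Of the 4 PDE4 genes, the main cAMP-specific enzymes of brain, PDE4D and PDE4C were lower in every morphine library than in any saline library. The intervals of PDE4A and PDE4B ran to both sides of no change, so no direction can be given for them. PDE4D, an enzyme that binds beta-arrestin and is recruited by it to activated beta-adrenergic receptors, fell with morphine. PDE4D (ENSMMUG00000012132) had 144.5, 131.6 and 144.1 normalized counts in morphine libraries 1, 2 and 3, against 171.7, 217.5 and 221.5 in saline libraries 1, 2 and 3. The groups did not overlap, and saline library 1 lay nearest to the morphine libraries. The means were 140.1 ± 7.33 with morphine and 203.6 ± 27.7 with saline (SD, n = 3 libraries each), a fall by 0.53 ± 0.118 (SE) on the log2 scale with a limma adjusted p of 0.0282. The PDE4D call was lost when any morphine replicate, 1, 2 or 3, was left out (limma adjusted p = 0.0717, 0.0874 and 0.0728), and likewise without saline replicate 2 or 3 (limma adjusted p = 0.0826 and 0.0758). It did not pass in limma with no filter on low values (adjusted p = 0.0585) or in the authors' deposited table (adjusted p = 0.0640), while it passed in DESeq2 (adjusted p = 0.0386) and in edgeR (adjusted p = 0.0309).

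PDE4C did not pass the test. PDE4C (ENSMMUG00000005028) had 406.0, 362.2 and 393.9 normalized counts in morphine libraries 1, 2 and 3, against 544.7, 420.0 and 508.3 in saline libraries 1, 2 and 3. The groups did not overlap, with saline library 2 the nearest to the morphine libraries. The log2 fold change was -0.33 ± 0.115 (SE), with a limma adjusted p of 0.0873, and PDE4C passed without saline replicate 2 (limma adjusted p = 0.0359).

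PDE4A was nearly level between the groups. PDE4A (ENSMMUG00000016122) had 4356, 4269 and 4230 normalized counts in morphine libraries 1, 2 and 3, against 4121, 4085 and 4419 in saline libraries 1, 2 and 3. The groups overlapped, and the log2 fold change of 0.03 had a 95% interval from -0.11 to 0.17 (limma adjusted p = 0.743). That interval is the narrowest among the 8 genes and does not reach the falls measured for PDE4D and PDE1A.

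PDE4B, an enzyme with roles in inflammatory signalling and a binding partner of DISC1, had 1 library far from the others. PDE4B (ENSMMUG00000007490) had 1343, 2886 and 1457 normalized counts in morphine libraries 1, 2 and 3, against 1212, 1508 and 1393 in saline libraries 1, 2 and 3. Morphine library 2, with 3179 reads, was the highest, and the other morphine libraries lay within the saline range. The log2 fold change was 0.38 with a 95% interval from -0.42 to 1.19 (limma adjusted p = 0.410), and without morphine replicate 2 it was 0.04 (limma adjusted p = 0.857). The summed normalized counts of the 4 PDE4 genes were 6250, 7649 and 6224 in morphine libraries 1, 2 and 3, against 6049, 6229 and 6542 in saline libraries 1, 2 and 3. Without PDE4B, the sums ran from 4763 to 4907 with morphine and from 4722 to 5149 with saline, so the groups overlapped with and without it.

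Neither PDE7 gene passed the test. PDE7B, a cAMP-specific enzyme abundant in striatum, had 1503, 1406 and 1419 normalized counts in morphine libraries 1, 2 and 3, against 1762, 1869 and 1586 in saline libraries 1, 2 and 3 (ENSMMUG00000003708). The groups did not overlap, with saline library 3 the nearest to the morphine libraries. The log2 fold change was -0.27 ± 0.0788 (SE), and the limma adjusted p of 0.0593 missed the threshold. The call of PDE7B depended on the test. It passed in DESeq2 (adjusted p = 0.00480), in edgeR (adjusted p = 0.0229), in limma with an intensity trend (adjusted p = 0.0243), in limma with a minimum mean of 50 (adjusted p = 0.0419) and in limma without saline replicate 3 (adjusted p = 0.0429). The authors' deposited table gives PDE7B an adjusted p of 0.00740. Of all genes tested, 18.8% fell in DESeq2, 17.7% in edgeR, 17.9% in limma with an intensity trend, 17.7% by the adjusted p of the authors' deposited table and 19.3% in limma with a minimum mean of 50, and the falls among the 8 genes were 3, 3, 3, 2 and 3 in the same order. With no filter 7.03% of all genes fell and 1 of the 8 did, and with the replicate number as a block 5.40% fell and 0 of the 8 did.

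PDE7A, the other cAMP-specific enzyme of the pair, had 723.7, 745.3 and 772.5 normalized counts in morphine libraries 1, 2 and 3, against 762.7, 578.3 and 748.8 in saline libraries 1, 2 and 3 (ENSMMUG00000011262). The groups overlapped, and saline library 2 was the lowest. The log2 fold change was 0.11 with a 95% interval from -0.20 to 0.42 (limma adjusted p = 0.531), and it was -0.02 without saline replicate 2. PDE4C and PDE7A shared a low value in saline library 2, and PDE7B and PDE4D did not: their saline library 2 was the highest or close to it.

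**Figure D2:**
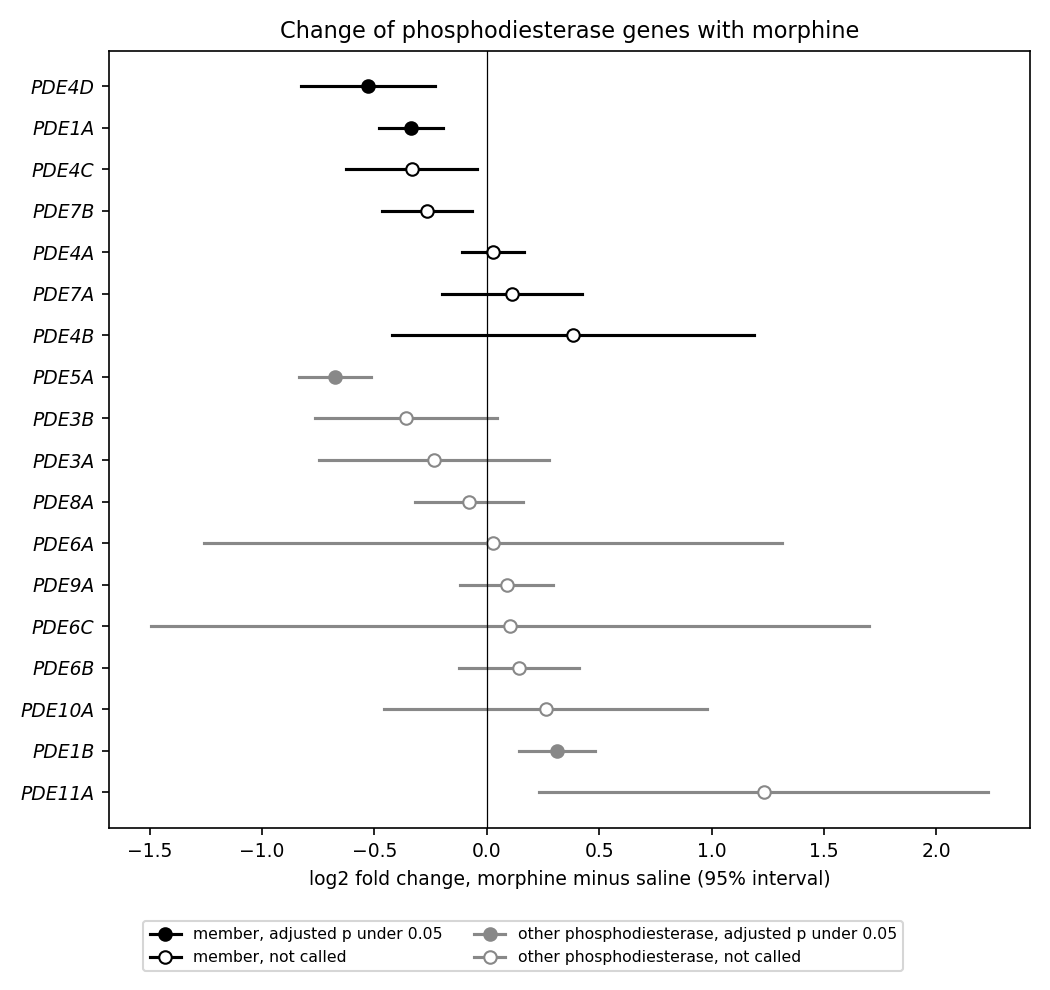
Log2 fold change, morphine minus saline (x axis), with 95% intervals from limma for 7 of the named phosphodiesterase genes (black) and 11 other phosphodiesterase genes (grey). Filled points have an adjusted p under 0.05; PDE1C is not drawn because its interval runs from -5.44 to 4.30. PDE4D, PDE1A and PDE5A lie below 0 and PDE1B above it among the filled points, while PDE4A has a short interval around 0.

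**Figure D3:**
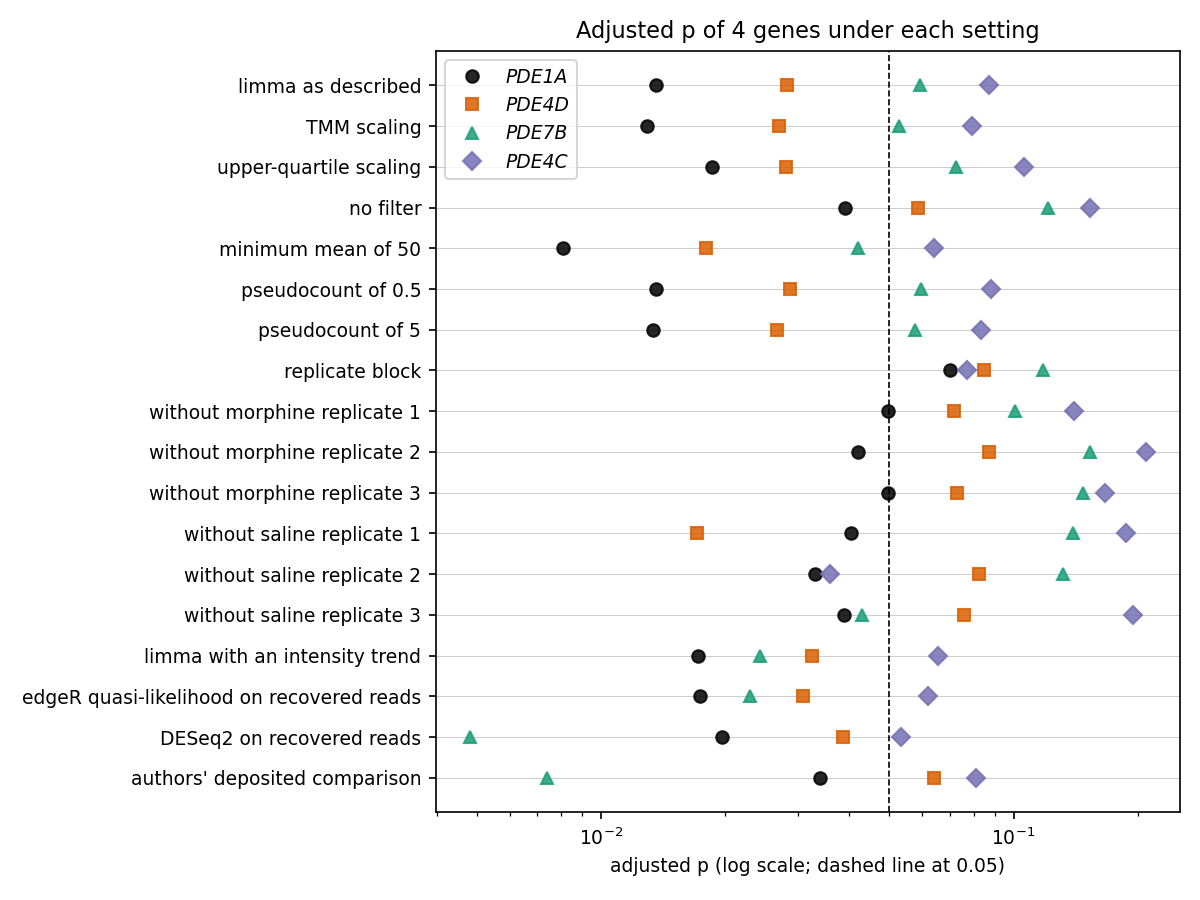
Adjusted p (x axis, log scale) of PDE1A, PDE4D, PDE7B and PDE4C under each test or setting (rows), with a dashed line at 0.05. PDE1A stays left of the line in all rows except the one with the replicate number as a block (0.0703), whereas PDE7B is left of it in the count-based tests and right of it in limma as described (0.0593).

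Whether 2 paralogs differed in their change was tested on their log2 ratio within each library, for the 8 pairs within the PDE1, PDE4 and PDE7 subfamilies. A ratio of normalized counts also holds the lengths of the transcripts of the 2 genes. These cancel when groups are compared only if each gene keeps the same mix of transcripts, which was not measured. The exact permutation test of 3 against 3 libraries cannot go below 0.1, so no pair could pass. PDE4A over PDE4D had log2 ratios of 4.90, 5.01 and 4.87 in morphine libraries 1, 2 and 3, against 4.58, 4.22 and 4.31 in saline libraries 1, 2 and 3. PDE4A was thus higher relative to PDE4D in every morphine library than in any saline library, by 0.55 on the log2 scale. PDE4A over PDE4C (0.36), PDE4B over PDE4D (0.91) and PDE7A over PDE7B (0.38) also had ratios that did not overlap and were higher with morphine. These 4 pairs had the smallest exact two-sided permutation p the design allows, 0.1, or 0.2 adjusted over the 8 pairs. Among all single genes tested, 24.6% had every morphine library below every saline library, and 24.1% had every one above. The share over pairs of other genes was not computed, so 4 of 8 cannot be read as particular to these paralogs. Pairs that share PDE4A or PDE4D are not independent of each other. PDE4B over PDE4D was 0.52 higher without morphine replicate 2.

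For the other 4 pairs the groups overlapped. PDE4C over PDE4D averaged 1.46 ± 0.0205 with morphine and 1.27 ± 0.362 with saline on the log2 scale (SD, n = 3 libraries each; exact permutation p = 0.4, and 0.533 adjusted over the 8 pairs). PDE4A over PDE4B differed by -0.36 (morphine minus saline, log2 scale), and by -0.00544 without morphine replicate 2, while PDE4B over PDE4C differed by 0.72, and by 0.32 without that library. PDE1A over PDE1C followed the 2 libraries in which PDE1C had no read and gave no direction.

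**Figure D4:**
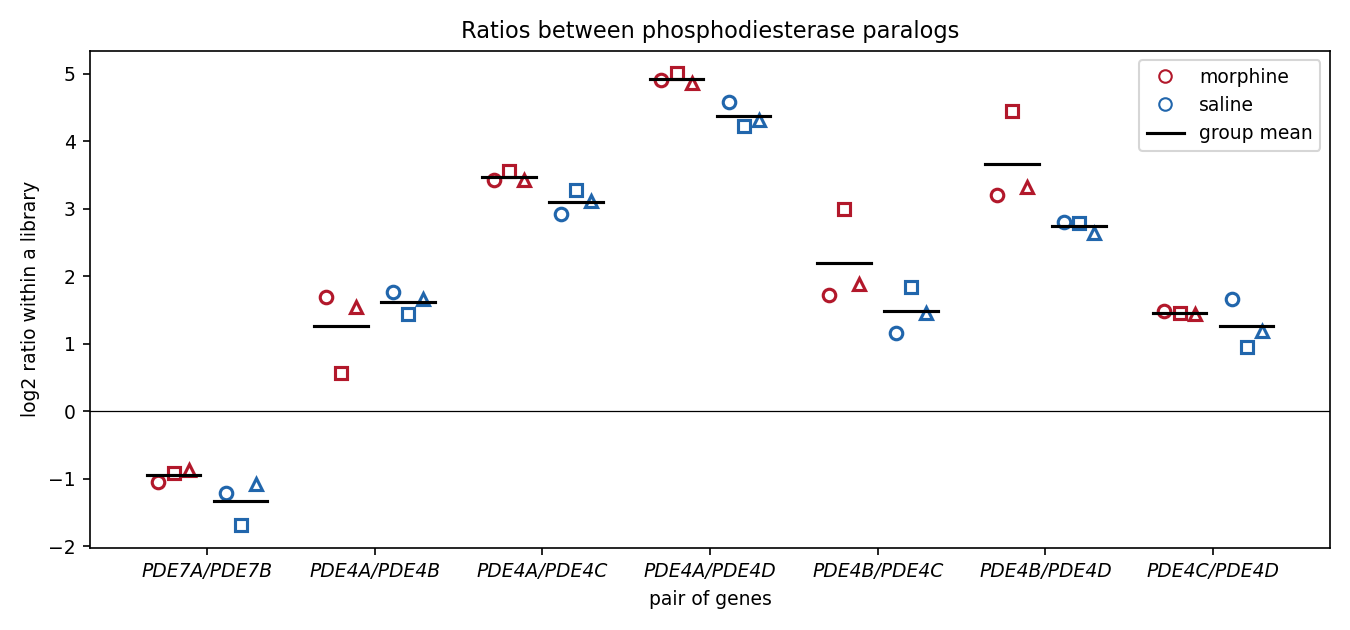
Log2 ratio of 2 phosphodiesterase paralogs within each library (y axis) for 7 pairs (x axis), with morphine libraries in red left of saline libraries in blue, symbols by library number and lines at the group means. PDE1A over PDE1C is not drawn because PDE1C had 0 reads in 2 libraries. The ratios of PDE4A to PDE4D lie between 4.87 and 5.01 with morphine and between 4.22 and 4.58 with saline.

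Of 14 other phosphodiesterases by name, 12 were matched and 11 measured, of which PDE5A fell and PDE1B rose, beside 15.0% and 12.9% of all genes. PDE5A, the cGMP-specific enzyme blocked by sildenafil, had 425.1, 433.9 and 398.7 normalized counts in morphine libraries 1, 2 and 3, against 645.3, 704.6 and 659.1 in saline libraries 1, 2 and 3. It fell by 0.67 ± 0.0634 (SE) on the log2 scale with a limma adjusted p of 0.00367, and it passed in all 6 fits with 1 library left out. PDE1B, the calmodulin-activated paralog of PDE1A that is prominent in dopamine-innervated neurons, had 1270, 1432 and 1338 normalized counts with morphine, against 1131, 1062 and 1058 with saline. PDE1B rose by 0.31 ± 0.0672 (limma adjusted p = 0.0257), but the call was lost when morphine replicate 2 or 3 was left out (limma adjusted p = 0.0713 and 0.0739) and when saline replicate 2 or 3 was (limma adjusted p = 0.0758 and 0.0753), which left 1 of the 11 genes called. PDE1A and PDE1B thus stood on opposite sides, each with groups that did not overlap. Of all genes tested, 24.6% had every morphine library below every saline library, and 24.1% had every one above. The ratio of PDE1A to PDE1B was not computed.

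The remaining 9 did not pass. PDE11A, an enzyme for both nucleotides, had 35, 40 and 41 reads in morphine libraries 1, 2 and 3, against 27, 16 and 8 reads in saline libraries 1, 2 and 3, with a log2 fold change of 1.23 ± 0.394 (SE; limma adjusted p = 0.0732, and 0.0312 without saline replicate 1). The cGMP-inhibited enzymes PDE3A and PDE3B had log2 fold changes of -0.23 and -0.36. PDE8A, a high-affinity cAMP enzyme, had -0.08, PDE9A, a high-affinity cGMP enzyme, 0.09, and PDE10A, known for its abundance in striatum, 0.26. The photoreceptor genes PDE6A, PDE6B and PDE6C had log2 fold changes of 0.03, 0.14 and 0.10, with at most 72 reads of PDE6A and 50 of PDE6C in any library. PDE6G, with 2 reads in saline library 1 and 0 in the other libraries, was below the level for testing.

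Among the enzymes that make cyclic nucleotides, 2 of 17 measured genes rose and 1 fell, beside 12.9% and 15.0% of all genes, with a median log2 fold change of 0.12. NPR1, the guanylyl cyclase receptor for atrial natriuretic peptide, had 239.1, 292.3 and 244.1 normalized counts with morphine, against 55.3, 73.2 and 63.3 with saline, a rise by 2.00 ± 0.135 (SE) on the log2 scale (limma adjusted p = 0.00212). ADCY5, the main adenylyl cyclase of striatum, rose by 0.28 (limma adjusted p = 0.0128), and both rises held in the 6 fits with 1 library left out. ADCY2 fell by 0.36 (limma adjusted p = 0.0227) but passed in only 1 of these 6 fits, without saline replicate 1. ADCY3, ADCY6 and ADCY10, the soluble adenylyl cyclase, had log2 fold changes of 0.22, 0.24 and 0.34 and did not pass in limma (adjusted p = 0.0763, 0.0580 and 0.0610). DESeq2 called 5 rises and edgeR 4 in this list, beside 18.0% and 16.3% of all genes, so the count depended on the test.

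Among the effectors of cyclic nucleotides, 7 of 17 measured genes fell and 1 rose (47.1% called, beside 27.9% of all genes), with a median log2 fold change of -0.47. The Epac genes RAPGEF4 and RAPGEF3, cAMP-activated exchange factors for Rap, fell by 0.54 ± 0.0552 and 0.49 ± 0.0520 (SE) on the log2 scale, with limma adjusted p-values of 0.00438 and 0.00472. PRKAR1A, a regulatory subunit of protein kinase A that binds cAMP, fell by 0.47 (limma adjusted p = 0.00709), and CREM, a transcription factor that responds to cAMP, by 0.64 (limma adjusted p = 0.0150). These 4 falls held in all 6 fits with 1 library left out. PRKG2, a cGMP-dependent kinase, fell by 0.47 (limma adjusted p = 0.0153), but not without morphine replicate 1 or saline replicate 1 (adjusted p = 0.0544 and 0.0501). CNGA3, a cyclic nucleotide-gated channel subunit known from cone photoreceptors, rose by 0.86 (limma adjusted p = 0.0316) and passed without saline replicate 1 or 2 but in none of the other 4 such fits. Called genes numbered 4 without morphine replicate 1 and 5 without morphine replicate 2 or saline replicate 3.

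Of 18 measured genes for partners and anchors of phosphodiesterases, 6 fell and 2 rose (44.4% called, beside 27.9% of all genes), with a median log2 fold change of -0.21. AKAP6 and AKAP11, anchors that hold protein kinase A, AKAP6 together with PDE4D in heart muscle, fell by 0.54 ± 0.0674 and 0.73 ± 0.0986 (SE) on the log2 scale, with limma adjusted p-values of 0.00648 and 0.00796. AKAP12 fell by 0.34 (limma adjusted p = 0.00925), AKAP7 by 0.43 (limma adjusted p = 0.0212), and CALM2, one of the genes for calmodulin, the activator of PDE1 enzymes, by 0.40 (limma adjusted p = 0.00777). AKAP7 passed without morphine replicate 3 or saline replicate 2 only, of the 6 fits with 1 library left out. RACK1, a scaffold that binds PDE4D, rose by 0.16 (limma adjusted p = 0.0492), chosen for naming after its value was seen, and it passed in 0 of these 6 fits. Called genes numbered 4 without morphine replicate 1 or 2 and 5 without saline replicate 1 or 3.

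**Figure D5:**
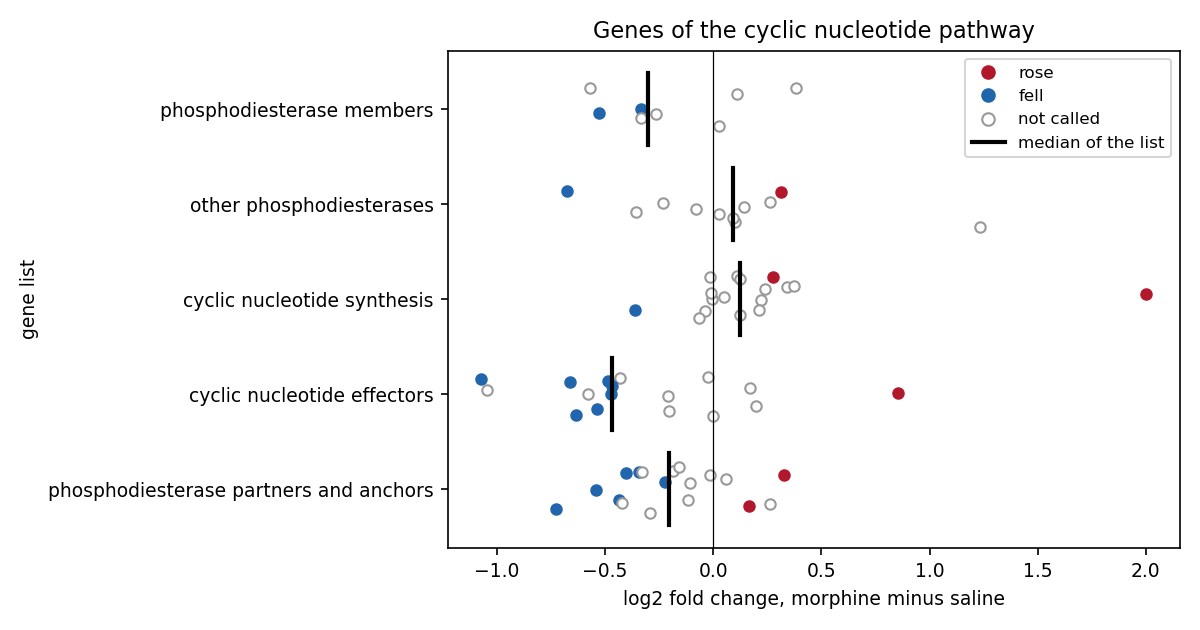
Log2 fold change, morphine minus saline (x axis), of each measured gene in 5 lists (rows, jittered vertically): the named phosphodiesterases, other phosphodiesterases, cyclic nucleotide synthesis, cyclic nucleotide effectors, and phosphodiesterase partners and anchors. Red points rose and blue points fell in limma at an adjusted p under 0.05, open points were not called, and black bars mark list medians of -0.30, 0.09, 0.12, -0.47 and -0.21 from top to bottom.

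Of the named phosphodiesterases, PDE4D had the largest called fall. The gene with the pattern most like that of PDE4D was CFP, with a Pearson correlation of 0.998 of log2 values over the 6 libraries. DEK and HDX followed with 0.997 and 0.995. All 6 points share the 2 groups, and 223 of 12948 genes with a symbol reached a correlation of at least 0.95 with PDE4D.

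Summed marker levels did not overlap between the groups for most cell types in the libraries that carry these results, but those of endothelial and mural markers did. Over all genes tested, 15.0% fell and 12.9% rose by the same rule. Summed oligodendrocyte markers ran from 267589 to 269941 with morphine and from 261655 to 266246 with saline. All 14 pan-neuronal markers were measured and had reads in every library, and their summed level was 250895 to 256201 normalized counts with morphine and 313059 to 323751 with saline, with 8 fallen and 2 risen. Of 10 measured astrocyte markers 7 fell and 2 rose, with sums of 259488 to 262849 with morphine and 316659 to 322722 with saline, and of 7 microglia markers 4 rose and 2 fell, with sums of 7758 to 8315 with morphine and 5342 to 5681 with saline. Of 12 endothelial and mural markers 4 fell and 2 rose (17752 to 23518 with morphine and 19372 to 20594 with saline), and of 7 leptomeningeal fibroblast markers 3 rose and 2 fell (5984 to 6032 with morphine and 6320 to 6663 with saline). Called rises and falls were 4 and 0 of 6 oligodendrocyte precursor markers, 3 and 3 of 9 oligodendrocyte markers, 0 and 4 of 12 excitatory and 3 and 1 of 11 inhibitory neuron markers. In each of the 6 fits with 1 library left out, falls of excitatory markers numbered 1 or 2, rises of oligodendrocyte precursor markers 2, rises of oligodendrocyte markers 1 or 2 and their falls 0 to 2, rises of pan-neuronal markers 0, falls of microglia markers 1 or 2, and falls of fibroblast markers 1. None of the measured markers was at 0 in any library, glial ones included, in libraries labelled as neurons. The part of cell makeup in the falls of PDE1A, PDE4D and PDE5A was not tested, and in bulk RNA fewer cells of a type and less RNA per cell cannot be told apart.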

How the data were processed

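Polyadenylated RNA of 6 libraries was sequenced. Tools listed without a role in the submitters' processing notes are Bowtie2 2.1.0, DESeq2 1.18.1 and StringTie, and the build listed is hg19. The identifiers are those of rhesus genes, so which build and strand setting the counting used is unsettled: not given in the sources used here. Each library's column, as deposited by the authors, is a signal taken as normalized counts, that is, reads over that library's own size factor. The headers of these columns name only group and library number, so this reading rests on the values, which divide into whole reads. The deposited table adds log2 fold changes, p-values and a test score computed by the authors. A second deposited table of 2332 genes is a subset and holds 0 of the 8 measured genes. All values came out as whole reads (100% within 0.001). Symbols matched 66.6% of identifiers.

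The test was limma 3.58.1 (R 4.3.3) on log2(value + 1), without trend, with group alone in the model, for genes whose mean reached 10, two-sided, Benjamini-Hochberg over all 16595 genes; fold changes on this scale understate changes of low genes. DESeq2 1.42.0 (without independent filtering) and edgeR 4.0.16 were run on recovered reads; with TMM and upper-quartile scaling they were alternatives, as were the settings given in the closing section. Both scalings moved the median gene by under 0.1 (-0.01 and 0.02 on the log2 scale). Libraries of a group differed by more than sampling noise. Over pairs of libraries, the chi-square per gene had a mean of at least 17.5 and a median between 2.60 and 3.19. Tests were checked on simulated data.

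Members and lists were chosen with earlier results of these data known. Named were all members and measured phosphodiesterases, and up to 6 genes of each other cyclic nucleotide list with the smallest adjusted p. Also named were the 3 genes most like, in pattern, the largest called fall among the members, which had no called rise. PRKACA, PRKACB and RACK1 were chosen for naming once their values were known. Marker genes are given as counts. One gene within this rule is not reported here. Sequences were not used here. Figures were drawn with matplotlib 3.10.9.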

Additional observations from a re-analysis of the deposited data

How the results depend on the processing

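Falls among the 8 phosphodiesterases numbered 2, against 1 with no filter and 0 at an adjusted p under 0.01. They numbered 3 with a minimum mean of 50, with an intensity trend, in DESeq2 and in edgeR. With 1 library left out they numbered 1 to 2, and PDE1A was called in each of these fits. The other gene called was PDE4D without saline replicate 1, PDE4C without saline replicate 2 and PDE7B without saline replicate 3. Rises were 0 under every setting run. Genes called in all numbered 4631, against 2993 with no filter, 1532 at an adjusted p under 0.01 and 2536 to 3181 with 1 library left out (2686, 2536 and 2760 without morphine replicate 1, 2 or 3, and 3073 and 2894 without saline replicate 1 or 2). Other phosphodiesterases called numbered 2, against 1 with no filter, 1 at 0.01 and 1 to 3 with 1 library left out. Synthesis genes numbered 3, against 5 with upper-quartile scaling, with a minimum mean of 50, with an intensity trend, in edgeR and in the authors' deposited table, 6 in DESeq2, 1 at 0.01 and 2 to 3 with 1 library left out. Effectors numbered 8, against 5 with no filter, 3 at 0.01 and 4 to 6 with 1 library left out, and partners 8, against 4 at 0.01 and 4 to 6. With the replicate number as a block, the counts were 0 falls among the 8 (PDE1A adjusted p = 0.0703, PDE4D 0.0848), 1577 genes in all, 1 other phosphodiesterase, 1 synthesis gene, 3 effectors and 1 partner. The labels do not say that same-numbered libraries share anything. Deviations of same-numbered libraries correlated at -0.0563, -0.00392 and -0.0284, and no library correlated best with its own number. Deviations from a mean of 3 libraries are tied to each other, so this check cannot decide whether same-numbered libraries share a factor. PRKACB, given below and chosen after its values were seen, was low in the same-numbered library of both groups. The uneven values of PDE1C, PDE4B and PRKACA, also given below, were not shared by same-numbered libraries. With 1 library left out, the log2 fold change ranged from -2.24 to 0.81 for PDE1C and from -0.0169 to 0.18 for PDE7A, and the group difference in the log2 ratio of PDE1A to PDE1C from -1.14 to 1.88. The log2 fold changes of PDE1A, PDE4A, PDE4B, PDE4C, PDE4D and PDE7B and the other 7 ratios kept their direction in every alternative run. Where a count moved, the cause was not tested. Leaving out a library leaves fewer samples, and no filter brings low genes into the fit as well as the adjustment. Where no read of PDE1C was counted, counting error allows up to 3.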

Other observations

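The catalytic subunits of protein kinase A, chosen after their values had been seen, held single libraries far from the rest. PRKACB had 1493, 11964 and 12289 normalized counts in morphine libraries 1, 2 and 3, against 2403, 17403 and 17587 in saline libraries 1, 2 and 3, so that library 1 of each group was several times lower than the others. PRKACA had 1064, 1209 and 1157 normalized counts in morphine libraries 1, 2 and 3, against 943.3, 3705 and 1049 in saline libraries 1, 2 and 3, with saline library 2 apart. Neither gene passed in limma with group alone in the model (adjusted p = 0.749 for PRKACB and 0.594 for PRKACA), while PRKACB passed in limma with the replicate number as a block (adjusted p = 0.0438). PDE1C, with 0 reads in morphine library 1 and saline library 2 but 18 to 49 in the other libraries, and PDE4B, with 3179 reads in morphine library 2 but 1228 to 1516 in the others, were similarly uneven within a group. The cause was not tested.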
